A study of Mus musculus with 3 samples.

Results

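Klf2 and 9 genes that act upstream of it were followed through single cells of mouse blastocysts, as 10 of the 23154 gene symbols counted. The 9 are the kinase genes Map3k2, Map3k3, Map2k5 and Mapk7, the transcription factor genes Mef2a and Mef2d, and the genes of the cerebral cavernous malformation (CCM) complex, Krit1, Ccm2 and Pdcd10. They were chosen by name as the known route to Klf2, and all 10 had counts in every library. The question was which upstream parts are expressed in blastocyst cells, and whether they vary with Klf2. The embryos came from a Klf2-H2Bmcherry line, a reporter of Klf2 expression, and were taken at embryonic day 2.5, cultured to the blastocyst stage and analysed at embryonic day 3.5. Single cells were picked from mCherry-positive embryos. The 3 libraries of 96 barcodes each, called replicates 1 to 3, form 1 group. Both static and shaking culture were used, and the labels do not assign cells to either, so no contrast between them was made.

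KLF2 is a zinc finger transcription factor. In the endothelium it is switched on by fluid shear stress, and in the early embryo it belongs to the factors of naive pluripotency. MEKK2 (Map3k2) and MEKK3 (Map3k3) phosphorylate the kinase MEK5 (Map2k5), MEK5 phosphorylates ERK5 (Mapk7), and ERK5 activates MEF2 factors, which bind the Klf2 promoter. The CCM proteins form a scaffold in which CCM2 binds MEKK3. In endothelial cells, loss of any of the CCM proteins raises the activity of this cascade and the level of KLF2.

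A match near the start of Klf2 to the consensus of MEF2, the last step of the cascade, is shown first. The remaining results ask whether the upstream genes move with Klf2. The MEF2 consensus, a stretch of 10 bases, was searched on both strands of RefSeq promoter windows (GRCm38.p6, mm10), which run from 250 bases before to 50 bases after a gene's start. Windows of 9 of the 10 genes, all but Map3k2, were examined and 2 genes held the consensus, against 3.704% of 27025 genes. The first was Klf2 on chromosome 8, which runs from 72319033 to 72321656 on the plus strand with 3 exons. Its site lay 118 to 109 bases before position 72319062, the start that RefSeq uses, which differs from the annotated gene start given above. The other was Mef2a itself, on chromosome 7 from 67231163 to 67372858 on the minus strand, where the match spans position -2 to 8 around the start. Capitals mark the match, and a match describes letters and not binding.
Klf2, chr8:72318882-72319001, plus strand: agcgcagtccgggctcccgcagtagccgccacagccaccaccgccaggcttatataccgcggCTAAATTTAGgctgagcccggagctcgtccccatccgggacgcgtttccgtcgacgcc
Mef2a, chr7:67372841-67372870, minus strand: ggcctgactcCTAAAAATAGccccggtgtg
The windows of Map3k3, Map2k5, Mapk7, Mef2d, Krit1, Ccm2 and Pdcd10 did not hold these letters.

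Barcodes with counts for 2000 or more genes were treated as cells, 83, 64 and 78 of them in replicates 1, 2 and 3. Library totals were 30573711, 27610866 and 54444536 counts, and single cells ranged from 7098 to 2705412. Clustering on marker genes alone, none of them among the 10, gave 111 cells resembling trophectoderm (TE-like), the outer epithelium, and 94 resembling inner cell mass (ICM-like), from which the embryo proper arises. Summed TE markers reached 6908 to 10100 CPM, the counts per 1000000 counts of the summed cells, in TE-like cells of the 3 libraries, against 1002 to 1131 CPM in ICM-like cells. Summed ICM markers were at 595.8 to 729.8 CPM in TE-like and 1186 to 1376 CPM in ICM-like cells, and epiblast markers at 1210 to 1381 CPM in TE-like and 1545 to 2809 CPM in ICM-like cells, with Sox2 at 0 in both. Whether a count of 0 means that a gene was not expressed was not tested, as the annotation used for counting is not given. Primitive endoderm markers summed to 1196, 3885 and 2372 CPM in TE-like cells of replicates 1, 2 and 3, against 1520, 1743 and 1265 CPM in ICM-like cells, so in replicates 2 and 3 the TE-like cells had more of them. The part of these markers in the class differences was not tested. The other 20 cells stayed unnamed because their markers matched no class, and 17 of them belonged to replicate 1. They all carried barcodes 33 to 64 of that library, and they bear on several of the values given here. Replicate 2 stood apart by its share of ribosomal protein counts, 4.21% against 13.4% in replicate 1 and 13.2% in replicate 3. Markers of endothelium, in which the pathway is best known, summed to 30.1 to 81.4 CPM over TE-like cells and to 67.7 to 377 CPM over ICM-like cells. Pecam1 led that list in both classes and Kdr, which encodes the VEGF receptor 2, was at 0. Markers of blood, cumulus cells and fibroblasts each stayed below 5 CPM in both classes of every library.

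All 9 upstream genes were detected, at levels below that of Klf2 in each library. The counts come from the 3' ends of transcripts, so CPM was not divided by transcript length. Over all cells of a library, Klf2 stood at 140, 337.5 and 235 CPM in replicates 1, 2 and 3, a mean of 237.5 ± 98.8 (SD, n = 3 libraries). It had a count in 90.4% of cells of replicate 1 (exact 95% interval 81.9 to 95.8), 85.9% of replicate 2 (75.0 to 93.4) and 85.9% of replicate 3 (76.2 to 92.7). Such intervals cover counting error only. Klf2 was the highest of the 10 genes in each library, and its level varied widely from cell to cell. Single cells of replicate 2 ranged from 0 to 3070 CPM around a median of 90.1 CPM.

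**Figure D1:**
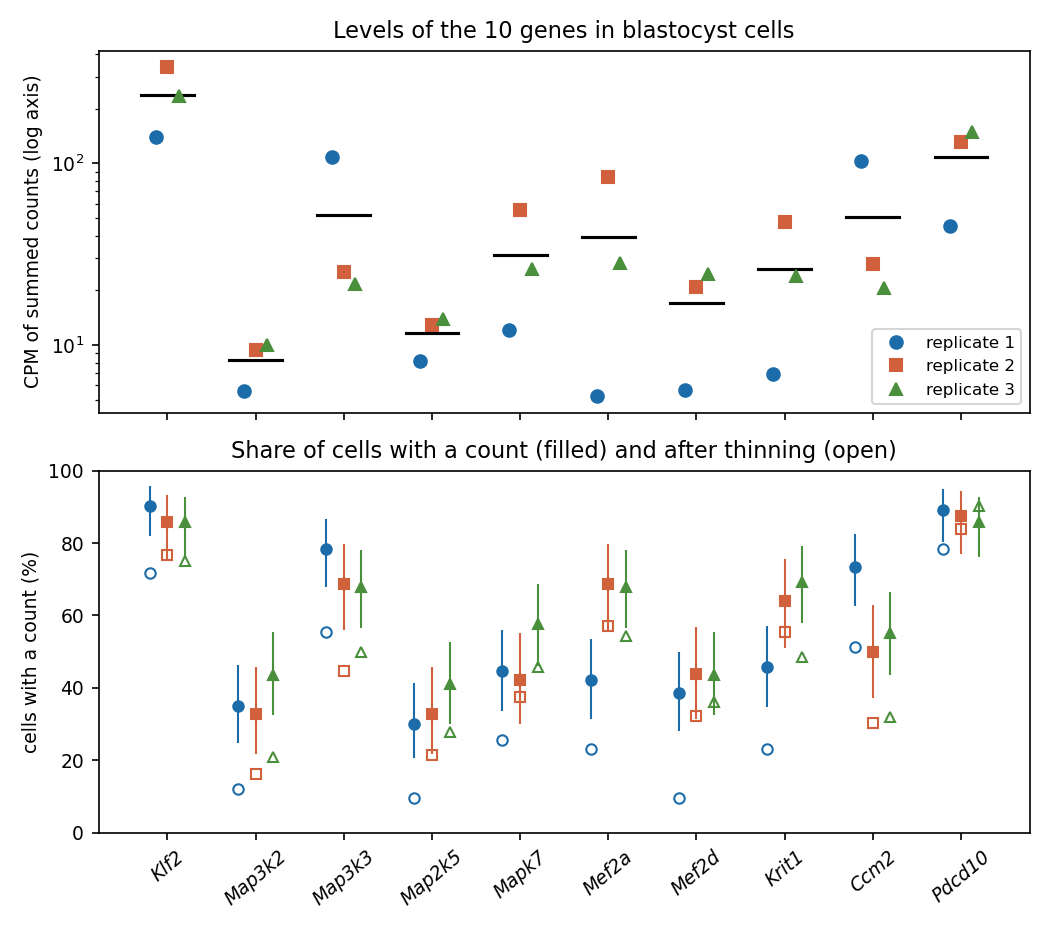
Upper panel, CPM of the counts summed over all cells of a library (log axis) for each gene, with 1 point per library and a bar at the mean of the 3; lower panel, percent of cells with a count, filled with exact 95% intervals, and open after each cell was thinned to 50000 counts. Klf2 is highest in each library, Pdcd10 is detected about as often as Klf2, and Map3k3 and Ccm2 are highest in replicate 1.

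Among the kinases, Map3k3 was the most widely detected and Map3k2 the least abundant. Map3k3 (chromosome 11, 106084613 to 106155446, plus strand, all positions in mm10) stood at 108, 25.4 and 21.8 CPM in replicates 1, 2 and 3, with counts in 78.3%, 68.8% and 68.0% of cells. In replicate 1, the highest library, a single cell held 48.3% of the Map3k3 counts. Without the unnamed cells Map3k3 came to 33.7, 25.4 and 21.9 CPM, and the 3 libraries lay close together. Map3k2, the paralog, stood at 5.57, 9.38 and 9.97 CPM, with counts in 34.9%, 32.8% and 43.6% of cells. Map2k5, the gene of the kinase that activates ERK5 (chromosome 9, 63163768 to 63377902, minus strand), stood at 8.22, 12.9 and 13.9 CPM, with counts in 30.1%, 32.8% and 41.0% of cells. Both genes were thus scarce in all 3 libraries, and in replicate 1 a single cell held 61.0% of the Map2k5 counts. Mapk7, whose product ERK5 carries a transcription-activating domain beside its kinase domain (chromosome 11, 61488812 to 61494406, minus strand), stood at 12.1, 55.3 and 26.3 CPM in 44.6%, 42.2% and 57.7% of cells. Its exons overlap those of Mfap4 on the other strand, and no source used here gives the strand setting of the counting. Mfap4 was counted at 8.03 to 8.98 CPM in the 3 libraries.

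The MEF2 genes, whose products act on the Klf2 promoter, were represented by Mef2a and Mef2d. Mef2a stood at 5.24, 84.5 and 28.4 CPM in replicates 1, 2 and 3, with counts in 42.2%, 68.8% and 68.0% of cells. It was high in replicate 2 and low in replicate 1. The exons of Mef2a overlap those of Lysmd4 on the other strand, which was counted at 6.26, 20.9 and 7.13 CPM. Mef2d (chromosome 3, 88142372 to 88172086, plus strand) stood at 5.67, 21.0 and 24.7 CPM, with counts in 38.6%, 43.8% and 43.6% of cells, and its exons overlap 1700113A16Rik, at 0.545 to 2.59 CPM. The remaining family members, Mef2b and Mef2c, averaged 0.863 ± 0.960 and 0.159 ± 0.0847 CPM (SD, n = 3), so the MEF2 transcripts of these cells were mainly those of Mef2a and Mef2d.

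Of the CCM genes, Pdcd10 was as widely detected as Klf2. Pdcd10 encodes CCM3, which joins the complex to kinases of the STK24 family. The gene (chromosome 3, 75516490 to 75556856, minus strand) stood at 45.0, 130 and 149 CPM, with counts in 89.2%, 87.5% and 85.9% of cells. Krit1 encodes CCM1, which binds the membrane receptor HEG1 and the small GTPase RAP1 (chromosome 5, 3803184 to 3845564, plus strand). It stood at 6.98, 47.8 and 24.0 CPM in 45.8%, 64.1% and 69.2% of cells. Ccm2, the gene of the scaffold that binds MEKK3 (chromosome 11, 6546887 to 6596744, plus strand), stood at 103, 28.1 and 20.6 CPM in 73.5%, 50.0% and 55.1% of cells. Like Map3k3 it was high in replicate 1, where a single cell held 35.2% of its counts. Without the unnamed cells Ccm2 came to 38.5, 28.1 and 20.7 CPM.

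The order of levels was clear at its upper end and not below. With the unnamed cells left out, Klf2 averaged 255 ± 74.5 CPM and Pdcd10 114 ± 45.2 CPM, and each library placed Klf2 first and Pdcd10 next. Mef2a at 39.6 ± 40.5, Mapk7 at 32.7 ± 20.3, Ccm2 at 29.1 ± 8.95, Krit1 at 27.1 ± 19.4, Map3k3 at 27.0 ± 6.06 and Mef2d at 17.1 ± 10.2 CPM followed. These 6 did not differ from their neighbours beyond the spread over libraries. Map2k5 at 12.2 ± 2.16 and Map3k2 at 7.99 ± 2.95 CPM came last by mean, and their spreads overlapped as well. Within each library Map2k5 was above Map3k2. In replicate 1 Map2k5, at 9.78 CPM, was also above Mef2d at 5.46, Mef2a at 5.75 and Krit1 at 9.36 CPM. Replicate 1 was the lowest library for 8 of the 10 genes, where 39.7% of all 12880 genes compared had their lowest level there. Without the unnamed cells it was again 8 of 10, against 39.5% of all genes.

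Detection of the scarcer genes fell when depth was made equal. Over all counts 6 of the 10 genes were present in at least 50% of cells on average, and after every cell was thinned to 50000 counts 3 remained, Pdcd10 at 84.2% ± 5.95, Klf2 at 74.5% ± 2.62 and Map3k3 at 50.0% ± 5.38 (SD, n = 3). The Map3k3 share lay at the limit. It includes the unnamed cells of replicate 1, 73.3% of them with a count, against 64.3% of TE-like and 38.7% of ICM-like cells there. Map3k2 fell to 16.4% ± 4.34 and Map2k5 to 19.6% ± 9.30. A count for every step of the cascade, meaning Map3k2 or Map3k3, Map2k5, Mapk7, and Mef2a or Mef2d, was seen in 11 of 83, 10 of 64 and 18 of 78 cells. After thinning these were 1 of 74, 2 of 56 and 4 of 72 cells, so few cells showed the whole cascade at that depth. Barcodes under 2000 genes were left out as cells and may hold stray RNA. Klf2 had a count in 3 of 13, 5 of 32 and 3 of 18 of them, Map3k3 in 3, 2 and 0 and Mef2d in 0, 5 and 1, and each other upstream gene in at most 2 barcodes of a library. The left-out barcodes held Klf2 at 190.5, 249 and 16.7 CPM in replicates 1, 2 and 3, from 9, 23 and 3 counts. In replicate 1 the 13 left-out barcodes held Map3k3 and Mapk7 at 444 CPM from 21 counts each. In replicates 2 and 3 these 2 genes had at most 2 counts each.

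Klf2 was lower in TE-like than in ICM-like cells, and it was the only gene of the 10 to pass the test. It stood at 114, 177 and 124 CPM in TE-like cells of replicates 1, 2 and 3, against 268, 577 and 387 CPM in ICM-like cells. Each TE-like value lay below each ICM-like value. The test was edgeR's quasi-likelihood fit to counts summed per library and class, blocked by library. The log2 fold change was -1.50 (SE 0.17, 2.82-fold lower in TE-like cells, adjusted p = 0.00592). Of 12580 genes tested, 363 passed, or 2.89%, of which 268, or 2.13%, were higher and 95, or 0.755%, lower in TE-like cells. Groups that do not overlap were found for 9.88% of genes. The Klf2 call was lost without replicate 2 (edgeR adjusted p = 0.11) or without replicate 3 (edgeR adjusted p = 0.0504), at log2 changes of -1.41 and -1.45.

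TE-like cells were drawn from 2 clusters, which stood farthest apart in Klf2 in replicate 3. Cluster 1 stood at 125, 152 and 188 CPM in replicates 1, 2 and 3, and cluster 3 at 89.4, 207 and 66.5 CPM. All of these values lay below those of ICM-like cells in the same library. After thinning to 50000 counts, Klf2 was detected in 82.1%, 66.7% and 62.2% of TE-like cells and in 80.6%, 91.3% and 91.2% of ICM-like cells.

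None of the 9 upstream genes passed between the classes, nor did any reach an unadjusted p below 0.05, as 16.3% of all genes did. The same held for calls after adjustment in each of 12 alternative settings, among which DESeq2 called 10.1% of all genes, and the lowest adjusted p was 0.0774, for Mef2d. Mef2d stood at 6.65, 23.5 and 37.9 CPM in TE-like cells, against 4.34, 17.2 and 6.86 CPM in ICM-like cells. It was higher in TE-like cells of 3 of 3 libraries, mainly in replicate 3, and the groups overlapped. Its log2 fold change was 1.20 (SE 0.55, edgeR adjusted p = 0.338), with a 95% interval from -0.08 to 2.48. The interval spans 0 and reaches a large difference.

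Mapk7 stood at 22.7, 57.4 and 28.1 CPM in TE-like cells, against 10.3, 52.2 and 24.0 CPM in ICM-like cells. Krit1 stood at 13.2, 53.3 and 25.8 CPM in TE-like cells, against 5.73, 39.5 and 21.7 CPM in ICM-like cells. Both were higher in TE-like cells of 3 of 3 libraries by less than the libraries differed among themselves. Their log2 fold changes were 0.53 (SE 0.34, 95% interval -0.26 to 1.32) and 0.65 (SE 0.34, 95% interval -0.16 to 1.46). After thinning, Mapk7 was detected in 39.3%, 39.4% and 56.8% of TE-like cells and in 19.4%, 34.8% and 35.3% of ICM-like cells. These shares did not overlap between the classes, as was the case for 12.7% of genes. Together 4 of the 10 genes, Klf2 included, moved the same way in all 3 libraries, as did 41.1% of all genes tested, so that count does not set the 10 genes apart.

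With no cell left out, Ccm2 and Map2k5 were lower in TE-like cells in replicates 1 and 2 and higher in replicate 3. Ccm2 stood at 18.9, 17.6 and 21.4 CPM in TE-like cells, against 57.0, 43.6 and 19.7 CPM in ICM-like cells. The TE-like values were even across libraries and the ICM-like values were not. The log2 fold change of -0.90 (SE 0.42, edgeR adjusted p = 0.351) shrank to -0.37 when the highest cell of each library was left out. Map2k5 stood at 3.81, 7.42 and 16.5 CPM in TE-like cells, against 15.4, 21.2 and 10.4 CPM in ICM-like cells, a log2 fold change of -0.94 (SE 0.66, 95% interval -2.50 to 0.61). Without the highest cell of each class in replicate 1, Map2k5 stood at 2.79 CPM in TE-like and 1.45 CPM in ICM-like cells, the reverse order. Map3k2 changed direction between libraries, with 1.86, 14.4 and 6.02 CPM in TE-like cells, against 7.20, 1.99 and 15.4 CPM in ICM-like cells.

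Pdcd10 was close between the classes, and the intervals of Map3k3 and Mef2a were wider. Pdcd10, the best measured of the upstream genes, stood at 67.5, 144 and 148.9 CPM in TE-like cells, against 58.6, 110 and 149.0 CPM in ICM-like cells. Its log2 fold change was 0.23 (SE 0.20), and its 95% interval of -0.23 to 0.69 bounds the difference most closely among the 9. Map3k3 stood at 24.9, 30.8 and 24.6 CPM in TE-like cells, against 41.9, 17.4 and 18.1 CPM in ICM-like cells with a log2 fold change of 0.21 (SE 0.40, 95% interval -0.72 to 1.14). Without the highest cell of each class in replicate 1, Map3k3 stood at 23.7 CPM in TE-like and 23.3 CPM in ICM-like cells. Mef2a stood at 5.67, 105 and 29.1 CPM in TE-like cells, against 5.82, 53.4 and 27.5 CPM in ICM-like cells with a log2 fold change of 0.38 (SE 0.32, 95% interval -0.37 to 1.14). Mef2a differed more between libraries than between classes, and replicate 1 was lowest in both classes.

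Whether the upstream genes vary with Klf2 was asked by dividing the cells of each library at the median Klf2 level. Klf2 drew these groups and is given as a description, at 293, 555 and 382 CPM in Klf2-high cells of replicates 1, 2 and 3 and 16.5, 16.4 and 39.7 CPM in Klf2-low cells. The groups also differed in class, as ICM-like cells made up 58.5%, 59.4% and 69.2% of Klf2-high cells and 26.2%, 18.8% and 17.9% of Klf2-low cells. Unnamed cells were 4.88% of the Klf2-high and 35.7% of the Klf2-low cells of replicate 1. Median totals per cell were 292707, 411666 and 673035 in Klf2-high cells, against 271735, 206321 and 603392 in Klf2-low cells. In replicate 1 nearly all cells of barcodes 33 to 64, named and unnamed, were Klf2-low. The same held when TE-like or ICM-like cells alone were divided, so values within classes or without unnamed cells still carry that difference. The parts of class, depth and barcode set in the differences between Klf2-high and Klf2-low cells were not tested over all cells. Values within each class are given beside those over all cells.

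No upstream gene passed between Klf2-high and Klf2-low cells. By edgeR 0 of all 12879 genes tested were called (0%), 416 or 3.23% had an unadjusted p below 0.05, none of the 9 among them, and DESeq2 called 90, or 0.69%. None of the 9 was called in any of 167 alternative results, of which the lowest adjusted p was 0.407. That was for Map2k5 over all cells thinned to 50000 counts, at a log2 fold change of -1.72 (unadjusted 95% interval -3.25 to -0.19). The 95% intervals were wide, from that of Pdcd10 (log2 fold change 0.27, -0.73 to 1.28) to that of Map3k2 (-0.86, -3.12 to 1.399). Over all cells 1 of the 9 moved the same way in every library, against 25.9% of all genes, within TE-like cells 2 of 9, against 26.2%, and within ICM-like cells 5 of 9, against 26%.

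**Figure D2:**
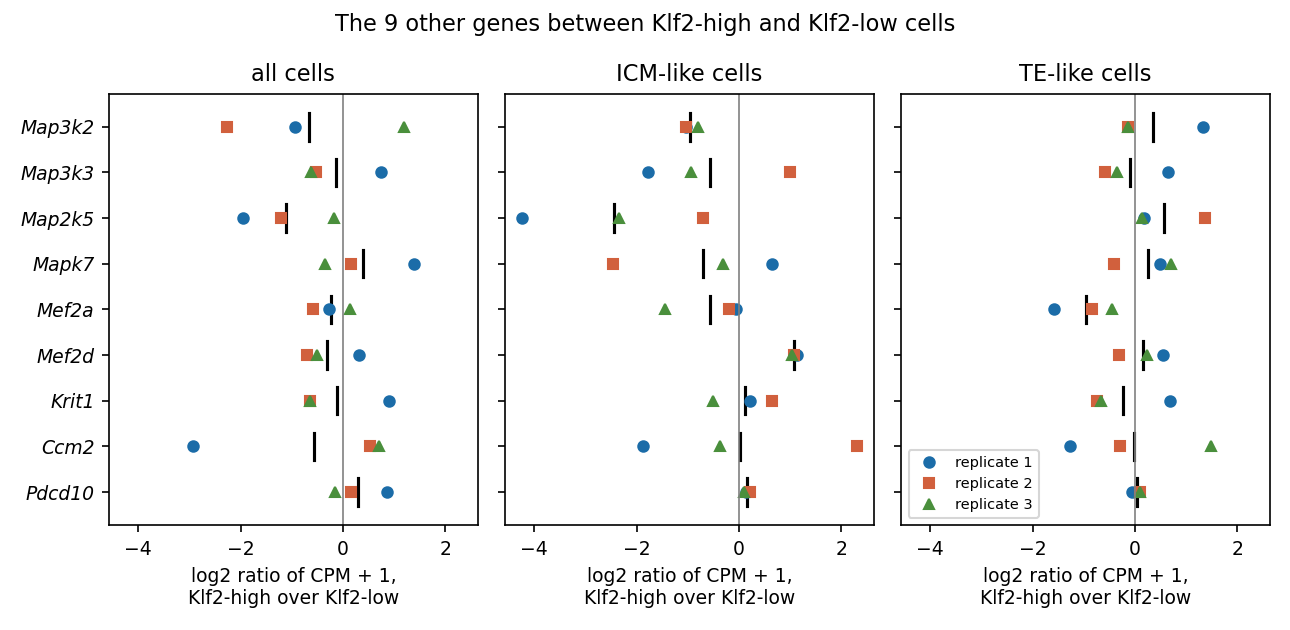
Log2 ratio of CPM plus a pseudocount of 1 in Klf2-high over Klf2-low cells for the 9 upstream genes, over all cells, within ICM-like cells and within TE-like cells; points are libraries and bars their mean. Map2k5 lies below 0 in every library over all cells and within ICM-like cells and, with all counts, above 0 within TE-like cells, and Mef2a lies below 0 in every library within each class.

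Map2k5 was lower in Klf2-high cells of 3 of 3 libraries without passing the test. It stood at 2.57, 8.11 and 13.1 CPM in Klf2-high cells, against 12.8, 20.1 and 14.9 CPM in Klf2-low cells, a log2 fold change of -1.28 (SE 0.72, edgeR adjusted p = 0.946). Within ICM-like cells the values were 0.711, 16.2 and 3.22 CPM in Klf2-high cells, against 31.4, 27.0 and 20.5 CPM in Klf2-low cells. These groups did not overlap, as was so for 4.87% of genes there, and the log2 fold change was -2.75 (edgeR adjusted p = 0.981). A single cell of replicate 1 held 153 of the counts. With the highest cell of each library left out the values were 0.711, 16.2 and 3.22 CPM in Klf2-high cells, against 2.48, 15.3 and 15 CPM in Klf2-low cells. The groups then overlapped, and the log2 fold change was -1.05 (edgeR adjusted p = 0.969). Within TE-like cells they were 4.04, 10.5 and 17.0 CPM in Klf2-high cells, against 3.47, 3.45 and 15.3 CPM in Klf2-low cells, so there Klf2-high cells had more in 3 of 3 libraries (log2 fold change 0.64). That direction was not kept without the highest cells or after thinning. Thinning left out cells under 50000 counts and drew the Klf2 groups anew, so the cells on each side changed along with depth. In replicate 1 the TE-like groups went from 15 Klf2-high and 16 Klf2-low cells to 10 and 18. With the highest TE-like cell of each library left out, Map2k5 stood at 2.31, 2.30 and 12 CPM in Klf2-high cells, against 3.47, 3.45 and 15.3 CPM in Klf2-low cells, lower in 3 of 3 libraries (log2 fold change -0.47, edgeR adjusted p = 0.988). With each cell thinned to 50000 counts the log2 fold change within TE-like cells was -1.59 (SE 0.80, edgeR adjusted p = 0.706), while Map2k5 within ICM-like cells, at 0, 7.27 and 0 CPM in Klf2-high and 10, 86.7 and 42.4 CPM in Klf2-low cells after thinning, was below the count filter of the fit. Map2k5 was seen in 26 of 94 ICM-like cells, which is how few cells these values rest on.

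Mef2a had the lower value in Klf2-high cells under each of 19 alternative settings. Over all cells it stood at 4.62, 70.1 and 29.6 CPM in Klf2-high cells, against 5.74, 106 and 26.9 CPM in Klf2-low cells (log2 fold change -0.27, SE 0.51). The share of cells with a count differed more, at 21.95%, 62.5% and 56.4% of Klf2-high cells and 61.9%, 75.0% and 79.5% of Klf2-low cells. Within TE-like cells Mef2a stood at 2.74, 77.9 and 26.2 CPM in Klf2-high cells, against 10.2, 141 and 36.1 CPM in Klf2-low cells. It was lower in 3 of 3 libraries there, at a log2 fold change of -0.98 (edgeR adjusted p = 0.999). Within ICM-like cells it stood at 5.69, 49.8 and 15.6 CPM in Klf2-high cells, against 5.96, 57.5 and 44.3 CPM in Klf2-low cells, lower in 3 of 3 libraries by unequal amounts.

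The direction of Ccm2 and Map3k3 differed between libraries. Ccm2 in replicate 1 stood at 21.3 CPM in Klf2-high and 169 CPM in Klf2-low cells, while in replicates 2 and 3 it stood at 32.3 and 24.9 CPM in Klf2-high, against 21.95 and 14.8 CPM in Klf2-low cells. In replicate 1 the unnamed cells, mostly Klf2-low, had 246 CPM, and without them Ccm2 stood at 18.9 CPM in Klf2-high and 58.7 CPM in Klf2-low cells of that library. Map3k3 stood at 139, 21.4 and 17.6 CPM in Klf2-high cells, against 82.5, 31.3 and 27.4 CPM in Klf2-low cells, and its highest cell in replicate 1 was an unnamed one. Without the unnamed cells Map3k3 stood at 22.1, 21.95 and 17.6 CPM in Klf2-high cells, against 45.7, 30.2 and 27.6 CPM in Klf2-low cells. These groups did not overlap, as was so for 4.13% of genes, and the log2 fold change of -0.69 (SE 0.32) did not pass (edgeR adjusted p = 0.907). Mef2d, with 6.22, 23.1 and 8.98 CPM in Klf2-high ICM-like cells, against 2.31, 10.4 and 3.89 CPM in Klf2-low ICM-like cells, was higher in 3 of 3 libraries there, and its log2 fold change of 1.29 came to -0.20 with the highest cell of each library left out. Over all cells Mef2d was higher in Klf2-high cells in 1 of 3 libraries. Pdcd10 stood at 60.3, 136 and 141 CPM in Klf2-high cells, against 32.8, 121 and 158 CPM in Klf2-low cells. Within ICM-like cells Pdcd10 was higher in 3 of 3 libraries by little, at 61.3, 117 and 153 CPM in Klf2-high cells, against 55.6, 101 and 143 CPM in Klf2-low cells.

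Map3k2, Mapk7 and Krit1 were not lower or higher in all 3 libraries over all cells. Map3k2 stood at 3.38, 3.11 and 13.5 CPM in Klf2-high cells, against 7.34, 18.6 and 5.33 CPM in Klf2-low cells. Within ICM-like cells Map3k2 was lower in 3 of 3 libraries, at 4.44, 1.01 and 11.5 CPM in Klf2-high cells, against 10.2, 3.13 and 20.9 CPM in Klf2-low cells (log2 fold change -1.18, SE 0.85, edgeR adjusted p = 0.981). Over all cells Mapk7 stood at 18.9, 57.7 and 23.4 CPM in Klf2-high cells, against 6.57, 51.7 and 30.1 CPM in Klf2-low cells. Krit1 stood at 9.76, 38.7 and 19.2 CPM in Klf2-high cells, against 4.73, 61.1 and 30.4 CPM in Klf2-low cells. Both were higher in Klf2-high cells of replicate 1 and lower in those of replicate 3.

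Over all cells, Mef2a was the gene of the 9 with the most negative mean Spearman correlation with Klf2. Spearman's rho of log2(CPM + 1) was computed within each library, and its mean is given as a description, since all points of a library share its preparation and depth. For Mef2a rho was -0.36, -0.21 and -0.16 in 83, 64 and 78 cells, a mean of -0.24. The same mean over 5898 genes with a count in at least 50% of cells of each library had a median of 0.10 and a range from the 5th to the 95th percentile of -0.19 to 0.31. Mef2a itself has a count in 42.2% of cells of replicate 1 and is not among those genes. Map3k2, Map2k5, Mapk7, Mef2d and Krit1 are not among them either. After thinning, rho was -0.23, -0.26 and -0.29 for Mef2a, against a range of -0.21 to 0.28 for those genes.

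Over all cells Mef2a was below that range, and the other 8 were inside it. Means of rho were -0.18 for Mef2d, -0.13 for Map3k3, -0.11 for Map2k5, 0.13 for Pdcd10 and 0.12 for Mapk7, and those of Map3k2, Krit1 and Ccm2 lay between -0.04 and -0.03. Within classes the negative mean of Mef2a remained, at -0.15 over TE-like cells and -0.23 over ICM-like cells, although single libraries reached 0.03 (TE-like, replicate 3) and 0.07 (ICM-like, replicate 2). After thinning within ICM-like cells, Map2k5 had rho of -0.27, -0.30 and -0.47. Its mean of -0.345 lay below the range of -0.237 to 0.232 there, and that of Mef2a, -0.17, inside it. After thinning within TE-like cells Map2k5 averaged -0.08, inside the range of -0.16 to 0.25, and Mef2a -0.27, below it. Mapk7 had rho of 0.24, 0.22 and 0.39 within TE-like cells, a mean of 0.29 that came to 0.11 after thinning. The correlation of Klf2 CPM with the total count of a cell was 0.05, 0.19 and 0.24 in replicates 1, 2 and 3.

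**Figure D3:**
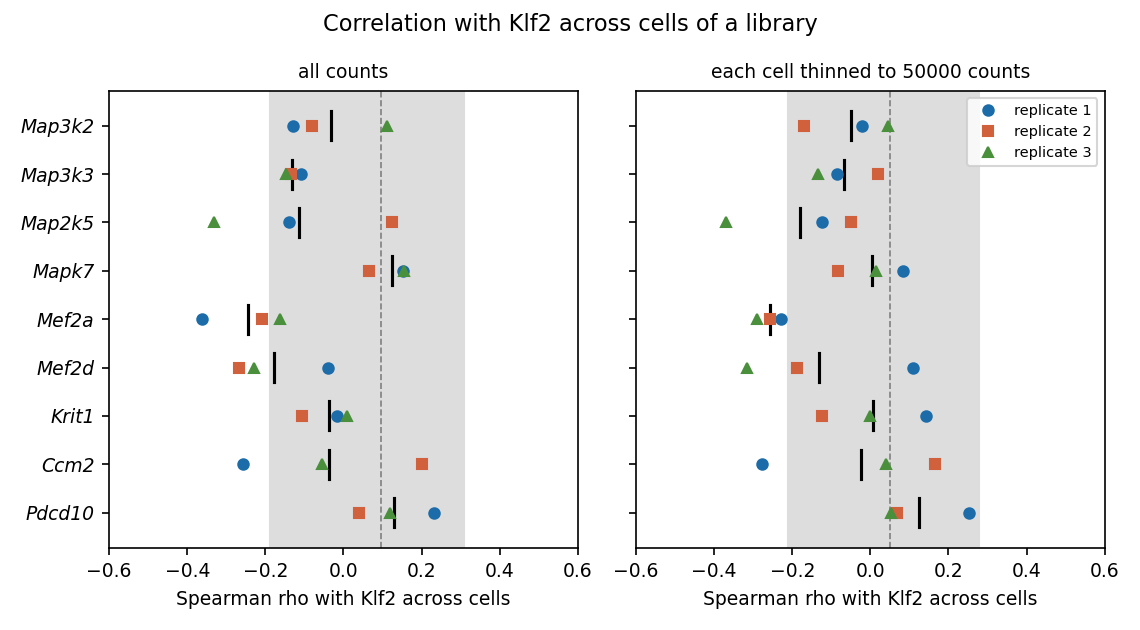
Spearman's rho with Klf2 across the cells of each library for the 9 upstream genes, with all counts and after thinning; points are libraries, bars their mean, the band spans the 5th to the 95th percentile of 5898 genes and the dashed line is their median. The mean of Mef2a lies below the band in both panels and those of the other 8 inside it.

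Genes with a count in at least 50% of cells of each library were ranked by this measure, and those most like Klf2 were not of the pathway. Of the upstream genes only Map3k3, Ccm2 and Pdcd10 met that limit, so the others could not appear in the ranking. Highest by mean rho were Ppm1a, a protein phosphatase gene, at 0.58, Map1lc3b, which encodes the autophagy protein LC3B, at 0.54, and Impdh2, an enzyme gene of guanine nucleotide synthesis, at 0.52. Ncl, which encodes nucleolin, followed at 0.51 and the histone deacetylase gene Hdac1 at 0.50. Within classes their means were lower, from 0.19 to 0.36 among TE-like cells and from 0.15 to 0.47 among ICM-like cells.

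The 17 unnamed cells of replicate 1 had an unlike pattern of the 10 genes. Map3k3 summed to 272 CPM in them, against 24.9 CPM in TE-like and 41.9 CPM in ICM-like cells of that library. Ccm2 summed to 246 CPM, against 18.9 CPM in TE-like and 57.0 CPM in ICM-like cells. The other genes that abounded elsewhere were scarce, with Klf2 at 22.4 CPM, against 114 CPM in TE-like and 268 CPM in ICM-like cells. Pdcd10 was at 5.39 CPM, against 67.5 CPM in TE-like and 58.6 CPM in ICM-like cells. These are sums over cells, and the share of all genes that stood above or below both classes there was not computed. Map3k3 and Ccm2 above, and Klf2 and Pdcd10 below, the medians of both classes were found together in 8 of the 17 cells. The cell with the highest Map3k3, 2530 CPM, had Klf2 at 169 CPM.

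Ccm2 had a count in 16 of the 17 unnamed cells, with a median of 94.0 CPM and a highest cell of 1460 CPM. Without that cell its sum was 141 CPM. Map3k3 rested more on few cells, with a median of 35.3 CPM, against 25 CPM in TE-like and 10.7 CPM in ICM-like cells, and its sum was 112 CPM without the highest cell. Mapk7 at 2.64 CPM and Krit1 at 1.69 CPM were low in these cells. Their depth was not low, at a median total of 295639 counts, against 305436 counts in TE-like cells and 264879 counts in ICM-like cells. Oocyte markers summed to 512.5 CPM in them, against 27.7 CPM in TE-like and 58.4 CPM in ICM-like cells of the library. Zp3, the gene of a zona pellucida protein, accounted for 494 CPM of that sum, and stood at 271 CPM without its highest cell. Other lists had counts there too. ICM markers summed to 873.1 CPM, epiblast markers to 1183 CPM, primitive endoderm markers to 1458 CPM and TE markers to 290.6 CPM. Endothelial markers summed to 234.5 CPM, against 30.1 CPM in TE-like and 67.7 CPM in ICM-like cells of the library. All 7 oocyte markers had counts in the data, and their part in the Map3k3 and Ccm2 levels was not tested. With 1 library there is no replicate check.

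**Figure D4:**
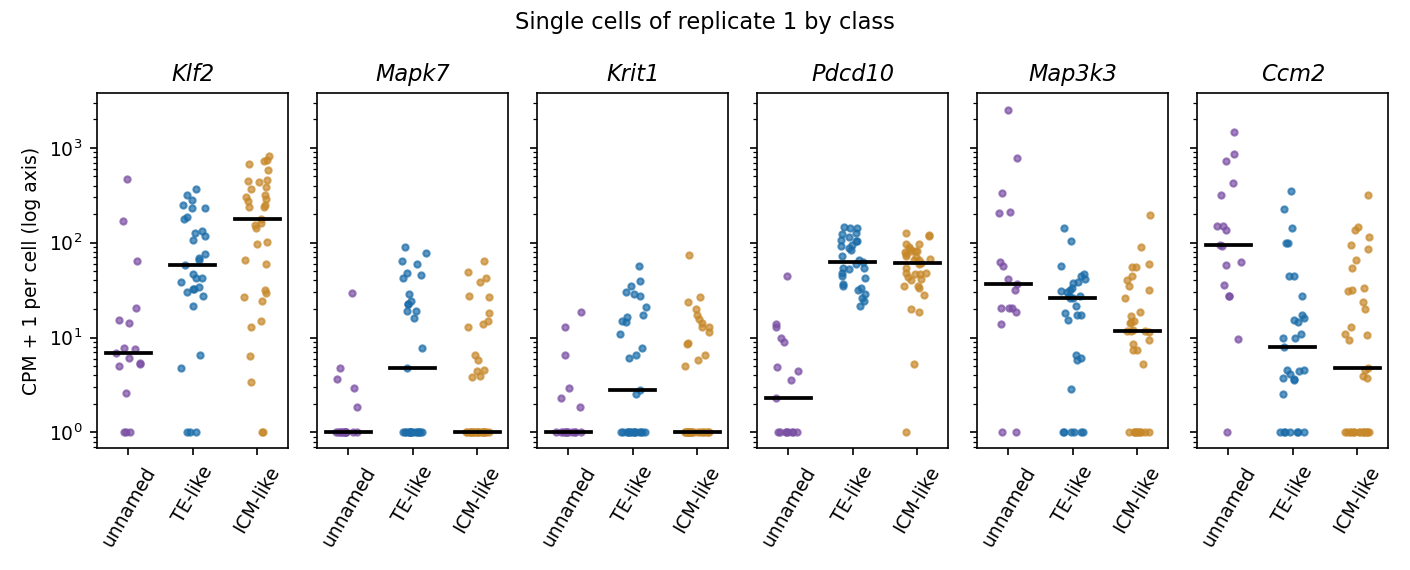
CPM plus 1 of single cells of replicate 1 on a log axis, for unnamed, TE-like and ICM-like cells, with a bar at the median. Unnamed cells are low in Klf2 and Pdcd10 and high in Ccm2, with medians of 5.90, 1.32 and 94.0 CPM.

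Partners of the pathway were looked at as a list of 24 genes, of which 19 were tested between the classes and none passed (lowest edgeR adjusted p = 0.178, against 2.89% of all genes called), at a median log2 fold change of -0.10, against 0.01 over all genes. None reached the threshold between Klf2-high and Klf2-low cells either. Of the 24, 14 exceeded 10 CPM in each library. Among the kinases that bind CCM3, Stk24 stood at 44.7, 192 and 115 CPM and Stk25 at 25.5, 66.0 and 33.1 CPM in replicates 1, 2 and 3, while Stk26 had counts in 1 of 225 cells. Ccm2l, the paralog of Ccm2, had no count in any cell. Heg1, the receptor that KRIT1 binds, stood at 5.28, 0.730 and 0.288 CPM in TE-like cells, against 12.9, 6.97 and 3.10 CPM in ICM-like cells. Its TE-like value was lower in 3 of 3 libraries, at a log2 fold change of -2.60 (SE 0.84, edgeR adjusted p = 0.178). These genes were named after their values were seen, to complete the families of the 10.

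Known outputs of KLF2 and of the CCM complex, mostly described in endothelium, were a list of 18 genes. Of these, 4 had no count in any cell, Kdr, Vcam1, Tmem100 and Txnip, and 7 stayed below 1 CPM in each library. Between the classes 7 were tested, of which 1 was higher and 0 were lower in TE-like cells, against 2.13% and 0.755% of all genes, at a median log2 fold change of -0.13. The gene that was higher was Klf6, a zinc finger factor of the same family as Klf2. It stood at 142, 245 and 298 CPM in TE-like cells, against 61.5, 82.7 and 81.1 CPM in ICM-like cells. The log2 fold change was 1.58 (SE 0.21, 2.99-fold, edgeR adjusted p = 0.0102), in the direction opposite to that of Klf2. The call was lost without replicate 2 (edgeR adjusted p = 0.141) or replicate 3 (edgeR adjusted p = 0.104). Klf4, a pluripotency factor of the same family, named after its value was seen, stood at 15.6, 10.8 and 3.91 CPM in TE-like cells, against 51.6, 20.5 and 28.2 CPM in ICM-like cells. It did not pass (log2 fold change -1.80, SE 0.45, edgeR adjusted p = 0.0995).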

How the data were processed

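The authors deposited whole-number counts per gene and barcode for 3 libraries of 96 barcodes. Per the labels' protocols, cDNA was made by a modified Smart-seq2 with molecular identifiers and 3' capture, and per the submitters' processing notes CASAVA 1.8, HISAT2, HTSeq and mm10 were used. For HISAT2 and HTSeq the version was not given in the sources used here, nor were annotation and strand setting, and whether counts are reads or molecules was not settled. The libraries share the same barcodes, of which 46 were kept in all 3; same-numbered cells of different libraries correlated at a median of 0.556, against 0.548 for other pairs. Nothing says that the libraries came from separate embryos, so p-values measure only how these samples spread, and that may be technical.

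Barcodes with at least 2000 genes were clustered (scanpy 1.11.5) on 53 markers, 10 principal components, 15 neighbours and Leiden resolution 0.5, and no doublet caller was run, since cells were picked by hand. Counts summed per library and class, or per library and side of the Klf2 median, were tested with edgeR 4.0.16 (filterByExpr, TMM, quasi-likelihood test, library as a block) and Benjamini-Hochberg adjustment at 0.05 over all genes. DESeq2 1.42.0, no filter, no block, each library left out, 4000 genes per cell, thinning, no cells over 2.5 times the median and other cluster settings were alternatives. The groups compared are parts of the same library, and the pairing rests on that. Scripts were tested on simulated data. Classes were drawn on the cells tested, and p-values do not include that uncertainty. All 10 genes are named, list members where they pass, and the 5 genes of highest mean rho. The genes and lists were chosen with earlier results of these data known. Gene positions are from GENCODE (mm10). The coordinates and promoter of Map3k2 are not reported here.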

Additional observations from a re-analysis of the deposited data

Results flagged for a closer look

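With all counts, Map2k5 had opposite signs against Klf2 within TE-like and ICM-like cells. Its mean log2 ratio of Klf2-high over Klf2-low cells was 2.99 higher within TE-like than within ICM-like cells, and all 3 libraries lay above 0 in TE-like and below 0 in ICM-like cells. The difference was not tested. Within TE-like cells the log2 fold change of 0.64 came to -1.59 after thinning to 50000 counts, which also drew the Klf2 groups anew. It came to -0.47 without the highest cell of each library. The opposite signs were thus seen with all cells and counts and not in those fits.

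Map3k3 at 272.3 CPM and Ccm2 at 246.0 CPM in the 17 unnamed cells of replicate 1 stood above both named classes of that library, in cells that no comparison between classes used. The share of all genes that did so was not computed, so these values do not set Map3k3 and Ccm2 apart. Hdac4, a pathway partner, stood at 480.8 CPM there, against 14.8 CPM in TE-like and 23.6 CPM in ICM-like cells. Klf6 went the other way, at 3.06 CPM, against 142 CPM in TE-like and 61.5 CPM in ICM-like cells.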

How the results depend on the processing

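Klf2 stayed lower in TE-like cells under each of 12 alternatives and passed in 9 of them. Without the library block, which pairs the classes of a library, 0 of 12580 genes passed by edgeR (734 at an unadjusted p below 0.05), so 0 of the 10 genes were called, and Klf2 came to -1.54 (adjusted p = 0.706); between Klf2-high and Klf2-low cells the block removed gave 0 called genes, as with it, and Map3k3 at 0.31. Called genes between classes numbered 1328 with DESeq2, 749 without cells over 2.5 times the median total, and 21 to 376 with a library left out, of which 0 to 1 were of the 10. Upstream genes kept their sign between classes in 103 of 108 results; exceptions were Map3k2 (thinned 0.23, a library left out -1.61 to 0.67), Map3k3 (a library left out -0.12 to 0.62) and Map2k5 (without the large cells 0.0197). Between Klf2-high and Klf2-low cells 90 genes were called with DESeq2, 37 without a filter, 1 at 4000 genes, 1 thinned, 0 to 31 with a library left out, 2 within TE-like cells, 6 within them thinned and 1 without the highest cells there. Signs held in 135 of 167 results. Thinning gave Map3k3 0.335, Mapk7 -0.48 and Ccm2 0.0107; without large cells Map3k3 was 0.339 and Pdcd10 -0.0086; at 4000 genes Krit1 was 0.11. Within ICM-like cells Mapk7 was -0.67, Mef2d 1.29 and Krit1 0.16, thinned Mapk7 -0.97 and Ccm2 0.53, and without the highest cells Mapk7 -0.55 and Ccm2 0.72. Within TE-like cells Map3k2 was 0.50, Map2k5 0.64 and Mef2d 0.16, thinned Map3k3 0.13, Krit1 0.30 and Ccm2 0.49, and without the highest cells Map3k3 0.0656, Mef2d 0.31, Krit1 0.0153, Ccm2 0.97 and Pdcd10 -0.13. With a library left out Mapk7 spanned -0.067 to 0.95, Ccm2 -1.13 to 0.69, Map3k2 -1.74 to 0.11, Map3k3 -0.558 to 0.216 and Krit1 -0.62 to 0.29. Genes in at least 50% of cells numbered 3 after thinning. Of the 9, the number outside the range of all genes in correlation was 2 with Pearson's r at a pseudocount of 1, 0 at 10, and 2 within ICM-like cells. The cause was not tested for any of these changes. Thinned values within classes, and those without unnamed cells or without the highest cell, were added after seeing the data.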
